A study of Homo sapiens with 6 samples.

Results

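Amino acid transporters of the solute carrier (SLC) families were examined in INA-6 cells, a line derived from human multiple myeloma (MM) and kept in interleukin-6 (IL-6). The set was a given list of 35 genes, with members of the SLC1, SLC3, SLC7, SLC36, SLC38 and SLC43 families and also SLC6A6, SLC6A9 and SLC16A10. It was chosen with earlier results of these data known. The list did not hold every member of these families, and some others, such as SLC1A6 and SLC7A4, are described apart. Each of the 35 had exactly 1 row of its own in the deposited array table, among 21921 genes in all. The EZH2 inhibitor UNC1999 was given to 3 cultures and its inactive counterpart UNC2400 to 3 others, each at 1 μM for 120 hours with medium and reagents renewed at 72 hours. All 6 cultures were INA-6 cells in RPMI medium with serum and a stable form of glutamine, seeded at 100000 cells per mL, so the groups differed by compound only as far as the labels tell. DMSO, a solvent, appears as the control in the study's text, whereas the array labels name UNC2400, and the groups follow the labels. A single cell line stands for the disease here, and the labels do not say whether equally numbered cultures of the 2 groups were started together.

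Amino acids cross membranes on carriers because they are too polar to diffuse. Heavy chains of the SLC3 family hold light chains of the SLC7 family in the membrane, SLC1A5 and the SLC38 carriers bring in glutamine and other small neutral amino acids, and the exchangers trade them for leucine and other large ones. Plasma cells make large amounts of immunoglobulin and have a high demand for such uptake, and many of these genes are known targets of ATF4, a transcription factor that is induced when amino acids are scarce. The methyltransferase EZH2 acts within polycomb repressive complexes and modifies histone H3 at silenced genes.

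The array table held 65529 transcript clusters with 1 log2 expression value for each array, and array medians lay between 4.83 and 4.86. Arrays of a group correlated at 0.9943 to 0.9977 (Pearson r across clusters) and arrays of different groups at 0.9855 to 0.988. The second principal component (13.3% of the variance) set UNC1999 replicate 3 apart, with a score of -19 against 12.4 and 7.13 for UNC1999 replicates 1 and 2. Of 10 plasma cell markers, 9 were lower and CD38 was higher with UNC1999 (the rise of CD38 passed in only 2 of 6 fits with an array left out), and their mean log2 level was 7.39 to 7.60 on the UNC1999 arrays and 8.50 to 8.58 on the UNC2400 arrays. Their part in the transporter results was not tested. The mean of 6 T cell markers lay at 4.94 to 4.97 with UNC1999 and 4.86 to 4.91 with UNC2400, that of 6 monocyte markers at 4.96 to 4.98 and 4.93 to 4.97, and that of 5 stromal markers at 5.01 to 5.06 and 4.96 to 5.00. CD3E was the only one of these 17 genes past the adjusted threshold (1.24-fold higher), while CD3D, CD3G, CD2, CD14, FCGR3A, LYZ, VCAN, DCN and LUM lay below the median of all values (4.85) in both groups. Arrays have no true zero, so a level near that median may be background. Others of these 17 genes lay higher, such as FCN1 (means of 6.32 with UNC1999 and 6.31 with UNC2400) and COL1A1 (5.90 and 5.85). Levels up to theirs may be background too.

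Amino acid transporters were lower with UNC1999 in 12 of 35 cases and higher in 1, and 22 did not pass an adjusted p of 0.05 in limma. Over all genes on the arrays, 7.32% were lower and 9.16% higher by the same rule, 16.5% in either direction. Over all clusters, named or not, 4.4% were lower and 4.99% higher, 9.39% in either direction. The 35 were chosen with earlier results of these data known, so these shares stand beside the count and do not test it. The 12 that fell were the heavy chain SLC3A2, the light chains SLC7A5, SLC7A6 and SLC7A11, the cationic carriers SLC7A1 and SLC7A2, the neutral exchangers SLC1A4 and SLC1A5, SLC38A1, SLC43A1, SLC43A2 and SLC6A9, by 1.33-fold to 2.73-fold. The median log2 difference (UNC1999 minus UNC2400) over the 35 was -0.07, beside 0.01 over all genes. With the cutoffs of the study (a fold of 1.5 or more and an unadjusted p up to 0.02), 10 of the 35 were lower and 0 were higher, beside 1.47% and 0.908% of all genes. The groups of 3 arrays did not overlap for 20 of the 35, lower with UNC1999 in 16 of them, but they did not overlap for 37.8% of all genes either. In bulk RNA, less RNA per cell cannot be told apart from fewer cells of a type. Without UNC1999 replicate 3, the array that stood apart, 11 of the 35 were lower and 1 was higher.

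**Figure D1:**
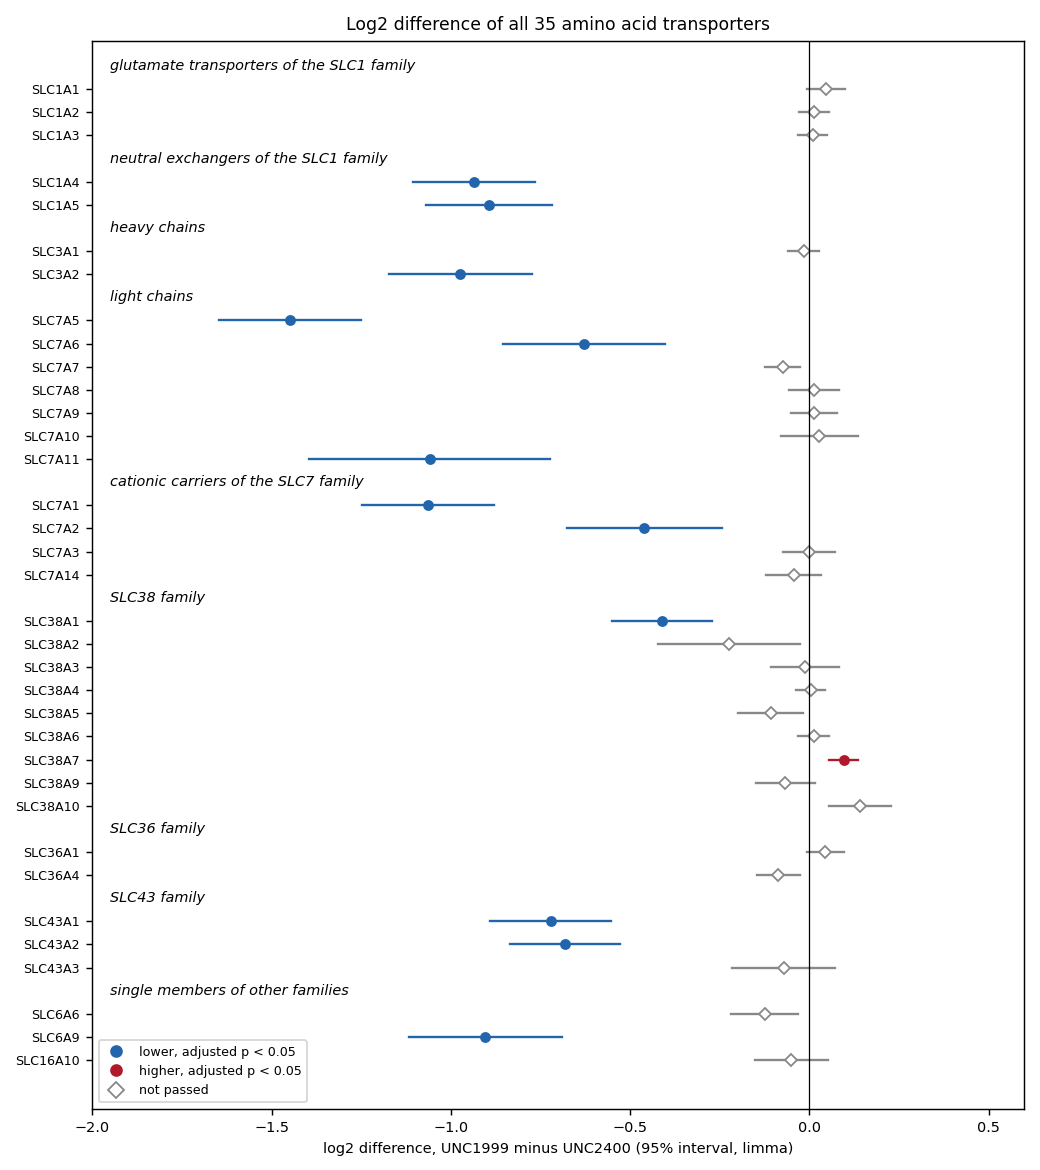
Log2 difference of each of the 35 amino acid transporters (x axis, UNC1999 minus UNC2400, log2 units) with its 95% interval from limma, grouped by family and role on the y axis. Filled points passed an adjusted p of 0.05, 12 of them to the left of 0 and SLC38A7 to the right, and the 22 open diamonds did not pass.

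The heavy chain SLC3A2 (4F2hc, CD98) carries its light chains to the plasma membrane. Its log2 values were 7.75, 7.56 and 7.72 with UNC1999 and 8.80, 8.56 and 8.60 with UNC2400. Every UNC1999 array lay below every UNC2400 array, and the difference of -0.97 ± 0.08 (SE) was a 1.96-fold fall (limma, adjusted p = 0.00255). SLC3A1 (rBAT), the heavy chain of the kidney and gut cystine transporter, lay below the array median with 4.41 to 4.42 in one group and 4.41 to 4.45 in the other (difference -0.02, 95% interval -0.06 to 0.03).

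Of the light chains, SLC7A5 (LAT1), which exchanges leucine and other large neutral amino acids for glutamine, had the largest fall of all 35 transporters. The UNC1999 arrays stood at 9.22, 8.97 and 9.12 and the UNC2400 arrays at 10.67, 10.52 and 10.46 on the log2 scale. The gap between the groups was several times the SD within them (0.12 and 0.11, n = 3 each), and the difference of -1.45 ± 0.08 (SE) was 2.73-fold (limma, adjusted p = 0.00107). Ranked by log2 difference, SLC7A5 came at place 19 from the lowest among 21921 genes. Its pseudogene SLC7A5P1 is close to it in sequence, so the rows may share signal. That row did not pass, with means ± SD over 3 arrays of 7.66 ± 0.20 under UNC1999 and 7.95 ± 0.15 under UNC2400 (limma, adjusted p = 0.231).

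SLC7A11 (xCT), which takes up cystine in exchange for glutamate and so feeds glutathione synthesis, was at 6.07, 6.19 and 6.39 with UNC1999 and at 7.46, 7.35 and 7.02 with UNC2400. Both groups spread more widely than for SLC7A5, with replicate 3 nearest to the other group in each, yet they did not overlap. The fall was 2.08-fold (difference -1.06 ± 0.14, limma, adjusted p = 0.00888), and -1.15 (limma, adjusted p = 0.0136) without UNC1999 replicate 3. Over the 6 leave-one-out fits the difference ran from -1.19 to -0.97. The call was kept only narrowly without UNC1999 replicate 2 (limma, adjusted p = 0.0468). SLC7A6 (y+LAT2), which exports arginine in return for glutamine and other neutral amino acids, fell 1.55-fold, from 7.30, 7.11 and 7.37 with UNC2400 to 6.60, 6.53 and 6.78 with UNC1999 (limma, adjusted p = 0.013). This call was lost when UNC1999 replicate 1, UNC1999 replicate 2 or UNC2400 replicate 1 was left out (limma, adjusted p = 0.055, 0.0551 and 0.055), with differences between -0.70 and -0.57 over the 6 leave-one-out fits.

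The other 4 light chains did not pass, and their means lay below those of FCN1, in the range that may be background. SLC7A7 (y+LAT1), the paralogue of SLC7A6 that is mutated in lysinuric protein intolerance, was at 4.83 with UNC1999 and 4.91 with UNC2400, near the array median (limma, adjusted p = 0.0812). SLC7A8 (LAT2), a close relative of SLC7A5, was at 5.02 and 5.01 (95% interval of the difference -0.06 to 0.08). SLC7A9, the partner of SLC3A1, and SLC7A10 (ASC-1), a carrier of glycine and D-serine, differed by 0.01 and 0.03 with intervals from -0.05 to 0.08 and from -0.08 to 0.14.

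Both SLC1 exchangers of neutral amino acids fell. SLC1A5 (ASCT2), a major route of glutamine entry, went from 9.75, 9.61 and 9.57 with UNC2400 to 8.79, 8.63 and 8.83 with UNC1999. That was a 1.86-fold fall (difference -0.89 ± 0.07, limma, adjusted p = 0.0023) with no overlap. SLC1A4 (ASCT1), which favours serine, alanine and cysteine, went from 7.99, 7.75 and 7.77 to 6.93, 6.84 and 6.93, a 1.91-fold fall (limma, adjusted p = 0.00189). The groups did not overlap, and UNC2400 replicate 1 stood above replicates 2 and 3. The glutamate transporters SLC1A1, SLC1A2 and SLC1A3, known best from neurons and glia, were all below the array median, with means of 4.56, 4.61 and 4.48 with UNC1999 and of 4.51, 4.59 and 4.47 with UNC2400, and none passed (limma, adjusted p = 0.279, 0.754 and 0.819).

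Cationic carriers import arginine and lysine. SLC7A1 (CAT1), the widely expressed form, was at 7.76, 7.57 and 7.67 with UNC1999 and at 8.87, 8.66 and 8.67 with UNC2400. The fall was 2.09-fold, larger than the spread of either group (difference -1.06 ± 0.07, limma, adjusted p = 0.00173). SLC7A2 (CAT2), an inducible form, stood at 5.39, 5.35 and 5.46 against 5.97, 5.67 and 5.94. UNC2400 replicate 2 was nearest to the UNC1999 arrays, and the 1.38-fold fall passed with all 6 arrays (limma, adjusted p = 0.0299) but in only 1 of 6 fits with an array left out, that without UNC2400 replicate 2 (limma, adjusted p between 0.0048 and 0.114 over the 6 fits). SLC7A3 and the lysosomal SLC7A14 were below the array median and differed by 0.00 and -0.04 (intervals from -0.07 to 0.07 and from -0.12 to 0.03).

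The plot of the called transporters shows the array values behind these falls. For 10 of the 12 that fell, UNC2400 replicate 1 was the highest of its group, and for 9 of them UNC1999 replicate 2 was the lowest of its group. The lowest UNC2400 array lay above the highest UNC1999 array by 0.20 to 1.24 log2 units for these 12.

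**Figure D2:**
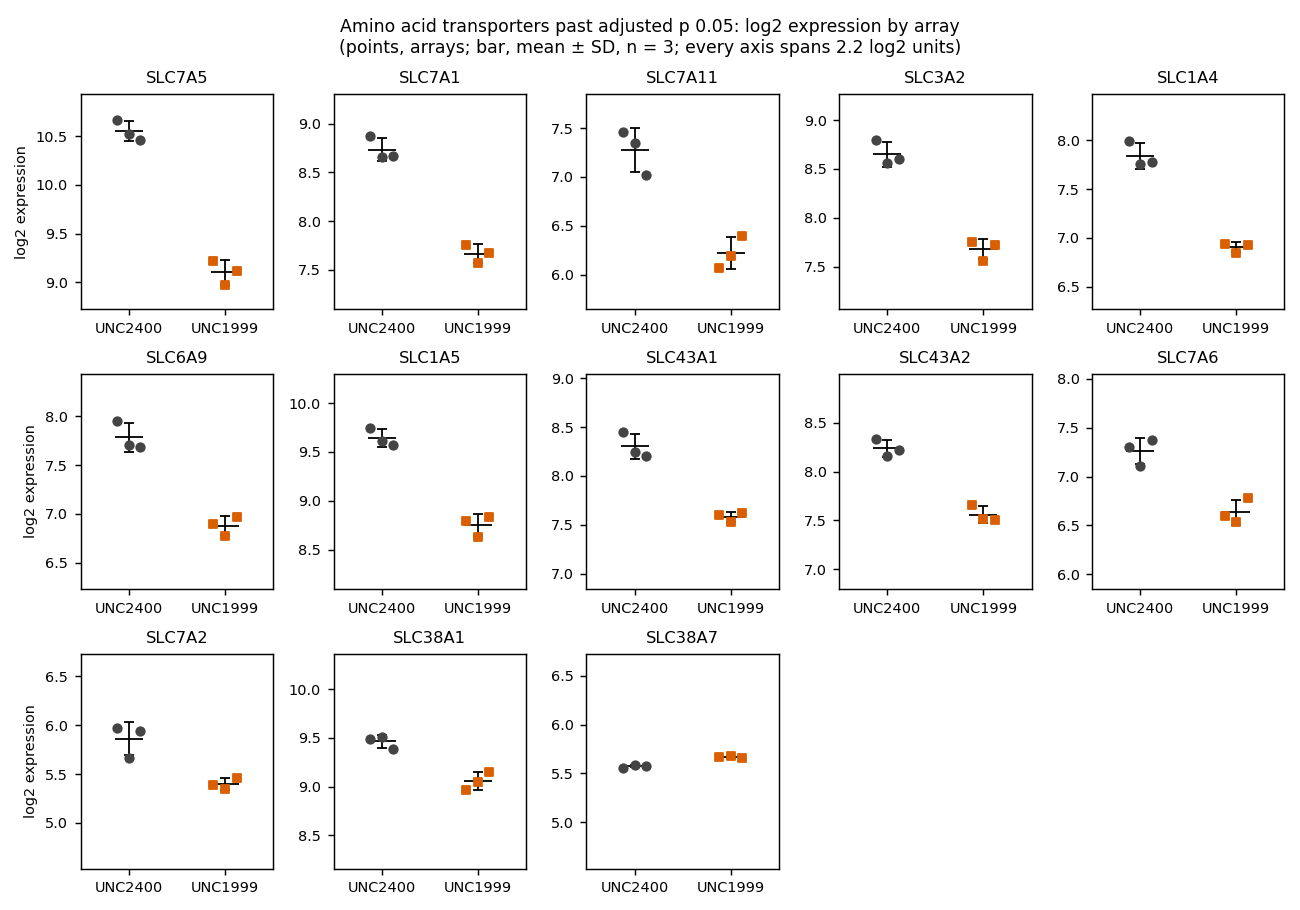
Log2 expression (y axis) of the 13 transporters past an adjusted p of 0.05 on each array with UNC2400 (circles) or UNC1999 (squares), with the mean and SD of each group (n = 3). In 12 panels all UNC1999 arrays lie below all UNC2400 arrays, widest apart for SLC7A5, and in the panel of SLC38A7 they lie above by a small distance.

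The SLC38 carriers couple the uptake of glutamine, alanine and serine to sodium or act at the lysosome. Of the 9 in the set, 1 fell, 1 rose and 7 did not pass. The 22.2% called was close to the 22.7% among genes above the array median in either group, beside 16.5% of all genes. The count is therefore no result about the family. SLC38A1 (SNAT1) fell 1.33-fold, from 9.49, 9.51 and 9.39 with UNC2400 to 8.97, 9.05 and 9.15 with UNC1999 (difference -0.41 ± 0.06, limma, adjusted p = 0.011). The groups were separate, and the call was lost without UNC1999 replicate 2 (limma, adjusted p = 0.0546). SLC38A2 (SNAT2), a well-known gene of the amino acid starvation response that lies next to SLC38A1 on chromosome 12, was at 9.14, 9.28 and 9.43 with UNC1999 and at 9.56, 9.54 and 9.41 with UNC2400. UNC1999 replicate 3 and UNC2400 replicate 3 overlapped, and the difference of -0.22 did not pass (limma, adjusted p = 0.173, 95% interval -0.42 to -0.03), nor did the -0.30 without UNC1999 replicate 3 (limma, adjusted p = 0.0563). SLC38A4, the next gene on, was below the array median at 4.36 in both groups.

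SLC38A7 (SNAT7), which exports glutamine from lysosomes, was the only transporter that rose. It was at 5.67, 5.68 and 5.66 with UNC1999 and at 5.56, 5.59 and 5.58 with UNC2400, a difference of 0.10 ± 0.02 (SE) or 1.07-fold (limma, adjusted p = 0.0235). The groups did not overlap, but the call was lost in 5 of 6 fits with an array left out, all but that without UNC1999 replicate 3 (limma, adjusted p up to 0.0945). SLC38A10, a less studied member, was higher by 0.14 and did not pass (limma, adjusted p = 0.0651). The glutamine and histidine carrier SLC38A5 was lower by 0.11 and SLC38A9, the arginine sensor of mTORC1 on lysosomes, by 0.07, and neither passed (limma, adjusted p = 0.157 and 0.33). SLC38A3 and SLC38A6 differed by -0.01 and 0.01.

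Of the SLC43 family, SLC43A1 (LAT3) and SLC43A2 (LAT4), uniporters of leucine, phenylalanine and other large neutral amino acids, both fell. SLC43A1 was at 7.60, 7.53 and 7.62 with UNC1999 and at 8.45, 8.25 and 8.21 with UNC2400, a 1.65-fold fall (limma, adjusted p = 0.00359). SLC43A2 was at 7.66, 7.51 and 7.50 against 8.34, 8.16 and 8.22, a 1.6-fold fall (limma, adjusted p = 0.00323). Neither gene had overlapping groups. SLC43A3, which carries purine bases and not amino acids, had means ± SD over 3 arrays of 7.16 ± 0.09 under UNC1999 and 7.23 ± 0.07 under UNC2400, with overlapping groups (limma, adjusted p = 0.59).

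SLC6A9 (GlyT1) imports glycine. Its values were 6.89, 6.77 and 6.97 with UNC1999 and 7.95, 7.71 and 7.69 with UNC2400, a 1.87-fold fall without overlap (difference -0.90 ± 0.09, limma, adjusted p = 0.00372). SLC6A6, the taurine transporter of the same family, was lower by 0.12 in separate groups and did not pass (limma, adjusted p = 0.114). SLC16A10 (TAT1), which lets aromatic amino acids leave the cell, was at 5.04 and 5.09. SLC36A1, a proton-coupled carrier of lysosomes, and its relative SLC36A4 differed by 0.05 and -0.09 and did not pass (limma, adjusted p = 0.3 and 0.092). Among all 22 transporters that did not pass, differences ran from -0.22 to 0.14, 18 of them were within 0.1 of 0, and 9 lay below the array median in both groups. An unadjusted p below 0.05 was reached by 6 of these 22.

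The 9 transporters other than SLC7A6, SLC7A2 and SLC38A1 among the 12 that fell stayed past the threshold whichever array was left out. Of these 9, SLC7A11 came nearest to it (limma, adjusted p up to 0.0468). The fewest were lower without UNC1999 replicate 2, with 9 of 35.

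**Figure D3:**
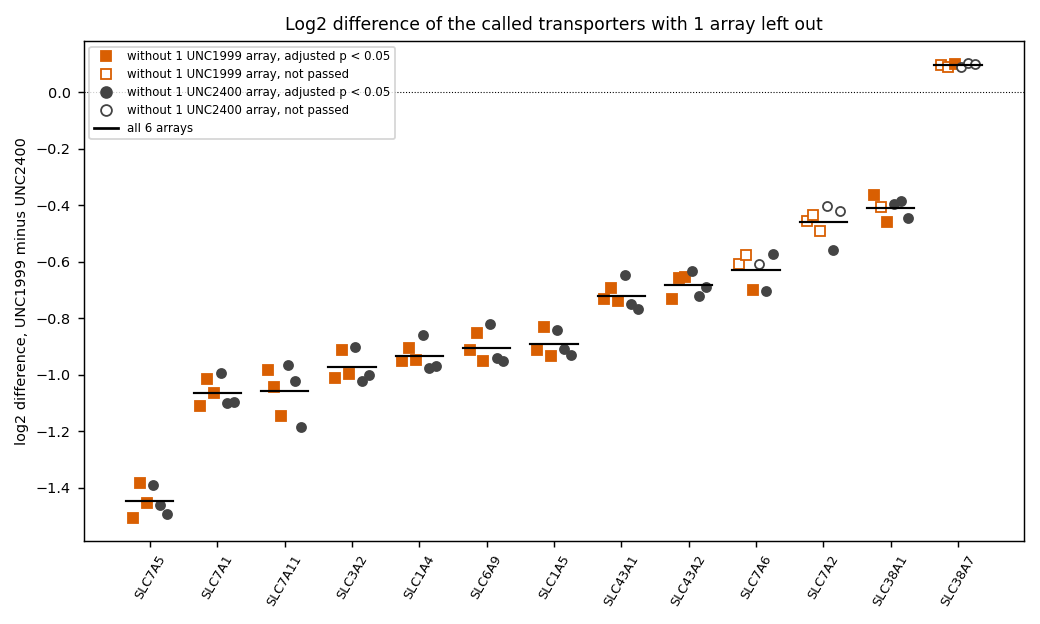
Log2 difference (y axis, UNC1999 minus UNC2400) of the 13 called transporters in fits without 1 of the UNC1999 arrays (squares) or 1 of the UNC2400 arrays (circles), open where the adjusted p was 0.05 or more, with the value from all 6 arrays as a bar. No point crosses 0, and open points occur for SLC7A6, SLC7A2, SLC38A1 and SLC38A7 only.

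Promoter sequence was then read for the transporters. A table of promoter windows (GRCh38.p14) held 48 windows for 27 of the 35 transporters. Each ran from 250 bases before to 50 after a gene start, with several starts for some genes. SLC1A2, SLC3A1, SLC6A6, SLC7A2, SLC7A3, SLC7A11, SLC38A3 and SLC43A3 had no window there. The C/EBP-ATF response element, at which ATF4 binds, was searched by its core TGATGNAA on both strands. It was found for 5 of the 10 transporters with a window that fell, for 1 of the 16 that did not pass and for 0 of the 1 that rose, and in 4.46% of all 27305 genes in the table. By window, the shares were 26.3% of 19 for those that fell, 3.7% of 27 for those that did not pass and 3.62% of 35116 over all genes. The matches of the 5 that fell, in 30 bases with the match in capitals, are shown 5′ to 3′ on the strand of the gene.
SLC1A4: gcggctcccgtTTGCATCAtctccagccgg
SLC1A5: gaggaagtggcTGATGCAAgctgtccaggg
SLC3A2: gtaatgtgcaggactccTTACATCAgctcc
SLC7A1: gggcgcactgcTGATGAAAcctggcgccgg
SLC38A1: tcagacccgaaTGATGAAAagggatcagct
SLC1A4 and SLC3A2 hold the core on the opposite strand. The windows are chr2:64989381-64989410 (plus strand), chr19:46784893-46784922 (minus), chr11:62881719-62881748 (plus), chr13:29595663-29595692 (minus) and chr12:46266502-46266531 (minus). The matches start at -7, -97, 38, 8 and -4 from the gene start of their window, counted without a position 0. The 1 transporter that did not pass and held a match was SLC1A3, whose signal was below the array median. SLC38A2 had no match in its single window, which says only that these letters are not in it.

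The E-box CACGTG, a site of MYC and related factors that reads the same on both strands and shares no letters of a match with the other core here, was found for SLC1A5, SLC43A1 and SLC7A5 among the 10 that fell, for SLC38A7, which rose, and for 4 of the 16 that did not pass, beside 8.77% of all genes. By window, the E-box was in 15.8% of 19 for those that fell and 14.8% of 27 for those that did not pass. Over all genes it was in 7.26% of 35116 windows. The 250 bases before the start of SLC7A5, the transporter with the largest fall, are shown with the E-box in capitals (chr16:87869508-87869757, minus strand, the match starting at -130).
SLC7A5: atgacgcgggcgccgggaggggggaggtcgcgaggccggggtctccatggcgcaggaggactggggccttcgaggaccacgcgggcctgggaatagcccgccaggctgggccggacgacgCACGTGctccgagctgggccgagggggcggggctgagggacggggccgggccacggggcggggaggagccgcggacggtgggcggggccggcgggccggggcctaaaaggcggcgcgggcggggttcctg
A match in a window is a description of the sequence, and binding was not measured here.

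Other genes that move or use amino acids were set beside the 35, in lists also chosen with earlier results of these data known. Of 18 other plasma membrane amino acid transporters, not on the list of 35, of the SLC1, SLC6, SLC7, SLC36 and SLC38 families, SLC6A8 alone passed and was higher, and 17 did not pass, with a median of 0.01 and 8 of 18 below the array median in both groups. The share called was 5.56%, and each list of this kind is to be read beside the 16.5% of all genes called in either direction. Among genes above the array median in either group that share was 22.7%, the nearer comparison for lists with few dim genes. SLC6A8, which carries creatine, rose 1.15-fold (limma, adjusted p = 0.0271), and passed in only 2 of 6 leave-one-out fits, those without replicate 3 of either group (adjusted p up to 0.104). Of 10 mitochondrial carriers, SLC25A12, an exchanger of aspartate and glutamate, fell 1.18-fold (limma, adjusted p = 0.00928) and SLC25A38, a glycine carrier, rose 1.17-fold (limma, adjusted p = 0.0429), which made 20% called, with a median of 0.03. The rise of SLC25A38 was kept only without UNC2400 replicate 1 among the 6 leave-one-out fits (limma, adjusted p up to 0.132). Of 10 lysosomal and vesicular carriers, only SLC17A5 (sialin), an exporter of sialic acid from lysosomes, passed, with a 1.54-fold fall (limma, adjusted p = 0.00807), which made 10% called, and the median was 0.02.

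Among 30 measured genes of amino acid sensing by mTORC1, the kinase complex that amino acids activate at the lysosome, 3 fell, 2 rose and 25 did not pass, with a median of 0.03. The 16.7% called was close to the 16.5% over all genes, so the count is no result about the list. It was below the 22.7% among genes above the array median in either group. RRAGD, a Rag GTPase that recruits mTORC1, fell 1.75-fold, from 8.02, 7.93 and 8.09 with UNC2400 to 7.16, 7.13 and 7.33 with UNC1999 (limma, adjusted p = 0.00254). Its paralogue RRAGC rose 1.31-fold, from 5.59, 5.54 and 5.66 to 5.91, 5.98 and 6.10 (limma, adjusted p = 0.0124), but not without UNC1999 replicate 2 or UNC2400 replicate 1 (adjusted p up to 0.0546). The leucine sensor SESN2 fell 1.71-fold and SEC13, which serves both the Rag regulator GATOR2 and vesicle coats, 1.5-fold (limma, adjusted p = 0.00927 and 0.00127). CASTOR2, a homologue of the arginine sensor CASTOR1 that has near copies in the genome, rose 1.48-fold (limma, adjusted p = 0.0107), but not without UNC1999 replicate 2 (adjusted p = 0.0527).

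Of 15 measured enzymes of glutamine, glutamate, aspartate and asparagine, 6 fell, 1 rose and 8 did not pass, with a median of -0.11. The share called was 46.7%, beside 16.5% of all genes (7.32% lower and 9.16% higher) and 22.7% of genes above the array median in either group. ASNS, which makes asparagine from aspartate and glutamine, fell 2.94-fold, from 8.36, 8.18 and 7.95 with UNC2400 to 6.66, 6.46 and 6.71 with UNC1999 (limma, adjusted p = 0.00207). GPT2, a mitochondrial alanine aminotransferase, fell 1.59-fold and ALDH18A1, the first enzyme of proline synthesis, 1.53-fold (limma, adjusted p = 0.00167 and 0.00164). GLUL, glutamine synthetase, went the other way. It was at 5.69, 5.73 and 5.97 with UNC1999 and at 5.00, 4.99 and 5.02 with UNC2400, a 1.73-fold rise without overlap (limma, adjusted p = 0.00351). Both groups lay below the level of FCN1 (6.32 and 6.31), so low signal may limit this value.

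**Figure D4:**
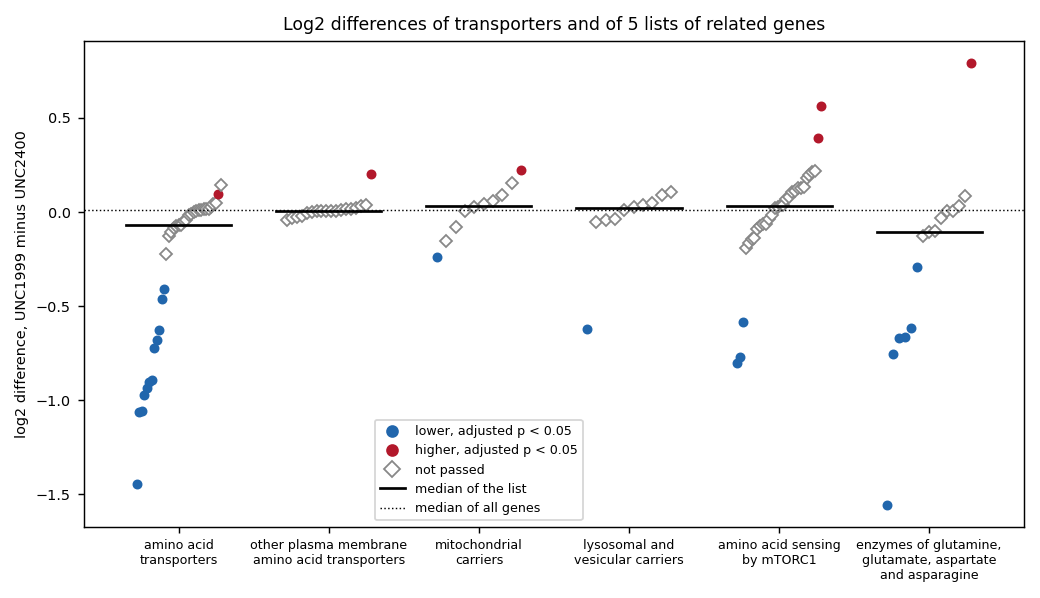
Log2 difference (y axis, UNC1999 minus UNC2400) of each measured gene in the set of 35 transporters and in 5 lists of related genes (x axis), sorted within a list, with the median of each list as a bar and that of all genes as a dotted line. Filled points passed an adjusted p of 0.05, 12 lower and 1 higher among the transporters and 6 lower and 1 higher among the 15 enzymes, whereas 17 of the 18 other plasma membrane transporters are open and close to 0.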

How the data were processed

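Total RNA of 6 INA-6 cultures was labelled with biotin and hybridised to Affymetrix arrays. The log2 expression values were deposited by the authors already summarised and normalized, and their methods name GeneSpring. How signals were summarised, background-corrected and normalized, and on which build, was not given in the sources used. Row names looked like those of junctions and probe regions. All 344 rows of the study's gene table that gave array values matched a deposited row in all 6 values. Rows were therefore taken as transcript clusters, which equal values do not by themselves show. For the 344, the gene symbol was the same for 312 and another for 32, and it was the same for all 10 rows of the transporters among them. The other transporters had no row among these and were not checked in this way. Of 65529 rows, 23129 had 1 gene symbol, 1221 several and 41179 none in the platform annotation. Symbols were updated through RefSeq (GRCh38.p14), which changed 2540. A gene on several rows was represented by the row with the highest mean. The table held 0 columns of other samples.

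Differences were tested with limma (version 3.58.1, R 4.3.3), lmFit and eBayes on all 65529 rows with a term for group, two-sided. P-values were adjusted over all rows (Benjamini-Hochberg, threshold 0.05). For the arrays, the methods of the study name a moderated t-test and give no pairing with it, while their general statement on statistics names a paired test. The fit was tested on simulated data. All 35 transporters were to be named, with array values for those that passed, and from each other list up to 3 called genes in each direction. The members and lists were chosen with earlier results of these data known. Listed genes with no row or a shared row were not counted. Alternatives were the replicate number as a block, each array left out, quantile, cyclic loess and median normalization, dim rows left out, trend and robust variance, the thresholds of the study, and other rows per gene. The number of arrays limits the precision.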

Additional observations from a re-analysis of the deposited data

How the results depend on the processing

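All 12 falls and the rise of SLC38A7 kept their direction under every alternative that was run. Only the normalizations, the fits with an array left out and the admission of rows with several symbols could have changed a direction. Transporters lower with UNC1999 numbered 14 with cyclic loess, 10 with the replicate block and 9 to 12 with 1 array left out. The rise of SLC38A7 was lost with cyclic loess, with dim rows left out, with trend and robust variance and at the thresholds of the study (0 higher each), and quantile normalization gave 2 higher. With 1 array left out, 0 to 1 transporters were higher. Over all clusters, 3273 were higher and 2881 lower, against 453 and 619 at the thresholds of the study, and 1486 to 3657 higher and 1428 to 2856 lower with 1 array left out. The lowest of these counts came without UNC1999 replicate 2.

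Over all 65529 clusters, many of them dim, equally numbered arrays of the 2 groups showed little shared deviation (r of 0.06, 0.08 and -0.01). The array methods state no pairing, so the main fit held no replicate term. This r cannot tell whether brighter genes were paired. SLC3A2, SLC7A1 and SLC7A6 ordered their replicates alike in both groups, and others, among them SLC7A11 and SLC38A1, did not. The replicate block gave 2162 clusters higher, and 10 transporters lower and 1 higher, with SLC7A11 and SLC38A1 at adjusted p = 0.0508 and 0.0545 in limma, SLC38A7 lost (0.0906) and SLC38A10 gained (0.0462).

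In the related lists, the count of other plasma membrane transporters higher was 0 with the replicate block and at the thresholds of the study, and 0 to 1 with 1 array left out. Mitochondrial carriers gave 0 higher with cyclic loess, with median centring and at the thresholds of the study, 2 lower with cyclic loess and 0 lower at those thresholds, and 0 to 1 higher with 1 array left out. For lysosomal and vesicular carriers, 0 to 1 were higher with 1 array left out. Sensing genes gave 4 higher with dim rows left out and 0 at the thresholds of the study, with 0 to 3 higher and 3 to 4 lower with 1 array left out. Enzymes gave 2 higher when rows with several symbols were admitted, and 1 to 2 higher and 4 to 6 lower with 1 array left out. The causes were not tested. Low signal limits the 9 transporters below the array median. It may also limit others. SLC7A2 (means of 5.40 with UNC1999 and 5.86 with UNC2400) and SLC38A7 (5.67 and 5.58) lay below the monocyte marker FCN1 (6.32 and 6.31). The UNC1999 mean of SLC7A11 (6.22) did too. Of those that did not pass, SLC7A7, SLC7A8 (5.02 and 5.01), SLC7A9, SLC7A10, SLC38A3, SLC38A9, SLC36A1 and SLC16A10 were also below FCN1 in both groups. So were GLUL (5.79 and 5.00), RRAGC (5.99 and 5.60) and SLC25A38 (6.14 and 5.92) of the related lists.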
